A study of Homo sapiens with 30 samples.

Results

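The MYC, MAX and MXD network is a group of transcription factors of the basic helix-loop-helix leucine zipper class. Its members were taken by symbol as MYC, MAX, MXD1, MXD3, MXD4, MXI1, MNT, MGA, MLX and MLXIP, and all 10 were found in each of the 3 count tables, among 60612 genes in the RBPMS knockout table and 56303 genes each in the tables of ANKRD10 overexpression and knockdown. In the knockout table the members were found by Ensembl identifier. RNA-seq was performed on 30 libraries of 5637 cells, an established human bladder carcinoma line, in 10 groups of 3 libraries. The study asked how RBPMS, an RNA-binding protein, and the transcripts of ANKRD10 act on bladder cancer cells. KO1 and KO2 were RBPMS knockout cells made with 2 sgRNAs and expanded from single clones, and WT1 and WT2 were their controls, called wild-type by the labels. ANKRD10-1 and ANKRD10-2 were cells overexpressing the longer or the shorter splice variant of ANKRD10, and Vector was their shared control. siANKRD10-1 and siANKRD10-2 were cells transfected with siRNA against 1 of these variants, and siNC, the control siRNA, was shared by both. By the results section of the paper, the host cells of the ANKRD10-1 and siANKRD10-2 groups were RBPMS knockouts. The labels name 5637 cells alone and give 1 control per table, so which of the overexpression and knockdown groups were RBPMS knockouts was not settled here. Nothing in the labels says that the libraries of a group came from separate cultures, and the p-values measure the spread between these libraries, which may be technical.

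As background, MYC binds DNA only as a dimer with MAX, at a short palindrome called the E-box, and switches on genes of growth, ribosome production and sugar metabolism. The MXD proteins, MXI1 and MNT also pair with MAX, compete with MYC for the same sites and bring in a SIN3 and histone deacetylase corepressor. MGA joins MAX in a Polycomb-type repressor, and MLX pairs with MLXIP (MondoA) in a parallel branch that responds to glucose. MYC is one of the best known oncogenes, and gain of its gene is recurrent in bladder carcinoma. Only RNA was measured here, so nothing in these data gives the amount of a protein or its binding.

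The total count per library ran from 44593108 to 69723937 in the knockout table, from 31736779 to 47493499 in the overexpression table and from 28511029 to 32784584 in the knockdown table. RBPMS was lower in KO1 (log2 fold change -1.44) and KO2 (-1.09) than in the matched control. It stood at 3.57 to 6.29 CPM (reads per 1000000 of the scaled library size) in the overexpression and knockdown tables, against 14.3 to 21.3 CPM in the knockout and 39.0 to 44.2 CPM in the wild-type libraries. Against the control of its own table RBPMS was not called with ANKRD10-1 (log2 fold change -0.19) or with siANKRD10-2 (0.029). ANKRD10 as a whole gene changed by 0.67 with ANKRD10-1, 0.41 with ANKRD10-2, -0.24 with siANKRD10-1 and -0.25 with siANKRD10-2, and counts per gene do not separate its variants. Epithelial genes (KRT7, KRT8, KRT18, KRT19, EPCAM and CDH1) were high in all 30 libraries. The 8 urothelial genes were mixed. KRT5, TP63, PPARG, FOXA1 and GATA3 had reads in every library, with medians of 626.5, 191, 61.5, 13.2 and 10.3 CPM. The surface gene UPK2 had a median of 0.85 CPM, and UPK3A and UPK1B had no read in 24 and 14 libraries. Of 8 genes of leukocytes, endothelium and fibroblasts, COL1A1 and CD68 alone had a median over 10 CPM.

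The order of the members was set by CPM per kilobase of exon, the only scale on which levels of different genes are compared here. In WT1, MYC was the most abundant member at 45.7 ± 2.18 CPM per kilobase (mean ± SD, n = 3), followed by MLX at 14.5 ± 0.591 and MAX at 11.1 ± 0.609, and the libraries of these 3 genes did not overlap. Next came MLXIP at 7.22 ± 0.368 and MGA at 6.85 ± 0.0403, which overlapped each other, and then MXI1 at 4.97 ± 0.313. MNT, MXD3 and MXD4 stood at 2.71, 2.56 and 2.47 and could not be ordered, and MXD1 was last at 1.10 ± 0.0889. In Vector and siNC the order was different. MLX led in both, at 33.9 ± 0.684 and 24.0 ± 1.86 CPM per kilobase, and MYC stood at 17.0 ± 0.495 and 15.6 ± 0.561. MXD1 was the fourth member in Vector at 9.63 ± 0.178, MXD3 was the fourth in siNC at 11.4 ± 1.02, and MXD4 was the lowest in both at 0.697 and 1.08. The 3 tables were scaled separately and differ in annotation, so no difference between tables was tested. The fewest reads behind a value were 173 for MXD4, and MYC had 902 to 12211 reads per library.

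Each treated group was compared with its own control by edgeR's quasi-likelihood test over all genes, with Benjamini-Hochberg adjustment and a threshold of 0.05. In KO1, 3 members were higher (MYC, MAX and MLX) and 4 lower (MXD3, MXD4, MGA and MLXIP), where 17.9% of all genes tested were higher and 18.2% lower. In KO2, 4 were higher (MYC, MXD1, MLX and MLXIP) and 2 lower (MXD3 and MNT), against 19.3% and 19.2% of all genes. ANKRD10-2 overexpression raised 3 (MYC, MXD1 and MLX) and lowered 1 (MGA), against 10.7% and 9.25% of all genes. siANKRD10-2 raised 2 (MXD4 and MLX) and lowered 4 (MYC, MAX, MXD1 and MXD3), against 17.6% and 18.7%. With ANKRD10-1 overexpression edgeR called no member, though 5 had an unadjusted p under 0.05, and 3.5% of all genes were higher and 2.81% lower. With siANKRD10-1 edgeR also called none, 4 had an unadjusted p under 0.05, and 5.08% and 5.52% of all genes were called. DESeq2 called no member in either of these 2 comparisons. In bulk libraries fewer cells that express a gene and less RNA per cell cannot be told apart.

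**Figure D1:**
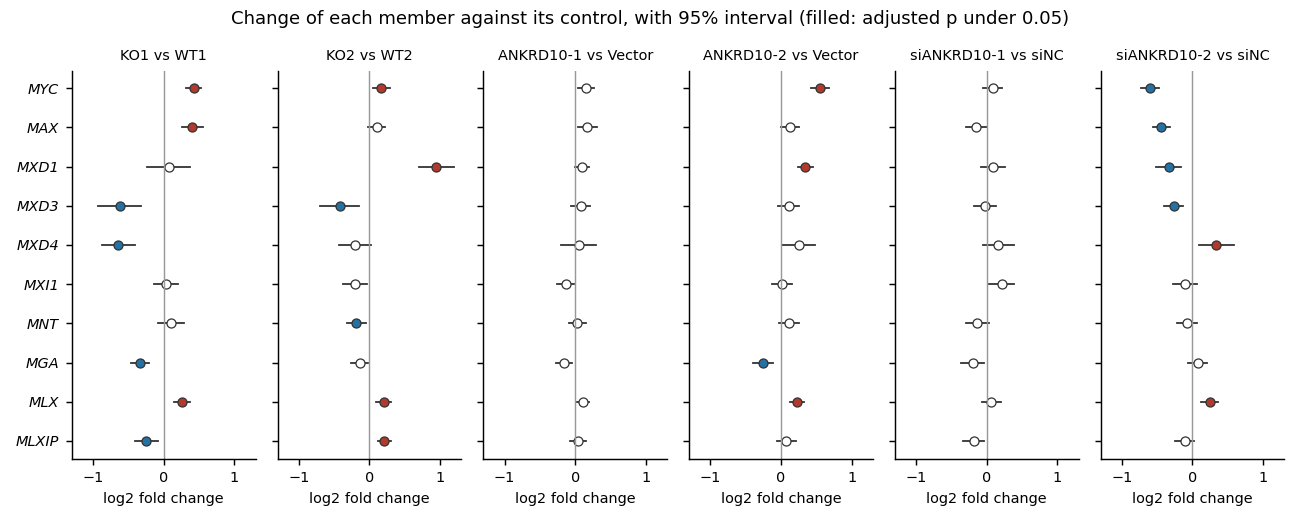
Log2 fold change of each member (rows) against the control of its table in the 6 comparisons (panels), with the 95% interval as a line. Filled points passed an adjusted p of 0.05 in edgeR, red when higher and blue when lower. MYC and MLX are each filled in 4 panels, MXI1 in none, and the point farthest to the right is MXD1 in KO2.

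The numbers of calls depended on the scaling in the overexpression table. With counts scaled by library totals alone, a choice added after seeing the data, calls over all genes were 418 higher and 937 lower with ANKRD10-1, in place of 717 and 574, and 1204 higher and 3152 lower with ANKRD10-2, in place of 2151 and 1866. Between the overexpressed variants they were 557 higher and 894 lower, in place of 833 and 622. In KO1 they were 2649 higher and 3729 lower, in place of 3204 and 3250. KO2 had 2912 higher and 4126 lower, in place of 3527 and 3507. For siANKRD10-2 they were 3621 higher and 3072 lower, in place of 3332 and 3542. MYC, MXD1 and MLX were higher and MGA lower with ANKRD10-2 under both scalings.

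MYC (chr8:127735434-127741434 on GRCh38, plus strand) was higher in both knockouts and with ANKRD10-2, and lower with siANKRD10-2. KO1 libraries had 184, 181 and 187 CPM and WT1 libraries 145, 133 and 134 CPM. All KO1 values lay above all WT1 values, and MYC rose by 34.0% (log2 fold change 0.42, SE 0.049, adjusted p = 7.3e-05). In KO2 the libraries had 154, 155 and 174 CPM against 143, 152 and 134 CPM in WT2. The groups did not overlap, and MYC rose (log2 fold change 0.17, SE 0.055, adjusted p = 0.032). That call was lost without KO2 replicate 3 (log2 fold change 0.11, adjusted p = 0.14), WT2 replicate 1 (0.17, 0.079) or WT2 replicate 3 (0.12, 0.13). It was also lost without the filter on low counts (adjusted p = 0.11) and with library totals alone (0.094).

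Overexpression of ANKRD10-2 gave MYC levels of 80.6, 72.2 and 71.4 CPM, all above the 52.1, 49.3 and 51.6 CPM of Vector. This was the largest rise of MYC among the 6 comparisons, at 46.6% (log2 fold change 0.55, SE 0.059, adjusted p = 2.2e-05). The ANKRD10-1 libraries had 55.6, 54.8 and 60.3 CPM, also above every Vector library, but the difference did not pass the adjustment (log2 fold change 0.16, 95% interval 0.045 to 0.27, adjusted p = 0.091). Compared directly, ANKRD10-2 libraries had more MYC than ANKRD10-1 libraries (log2 difference 0.39, adjusted p = 0.00031). That direct comparison called 2 members higher (MYC and MXD1) and none lower, against 4.15% and 3.1% of all genes.

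In the knockdown table, siNC libraries had 46.7, 45.1 and 48.5 CPM of MYC. siANKRD10-2 libraries had 32.3, 31.3 and 29 CPM, all below the control, and MYC fell by 33.9% (log2 fold change -0.60, SE 0.063, adjusted p = 3.7e-08). siANKRD10-1 libraries had 52.3, 46.0 and 50.1 CPM, which overlapped siNC (log2 fold change 0.082, 95% interval -0.053 to 0.22, adjusted p = 0.47). The siRNAs compared directly differed by -0.68 on the log2 scale, lower with siANKRD10-2 (adjusted p = 5.2e-08). In that comparison 2 members were higher (MGA and MLX) and 5 lower (MYC, MAX, MXD1, MXD3 and MXI1), against 18.2% and 18.8% of all genes.

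**Figure D2:**
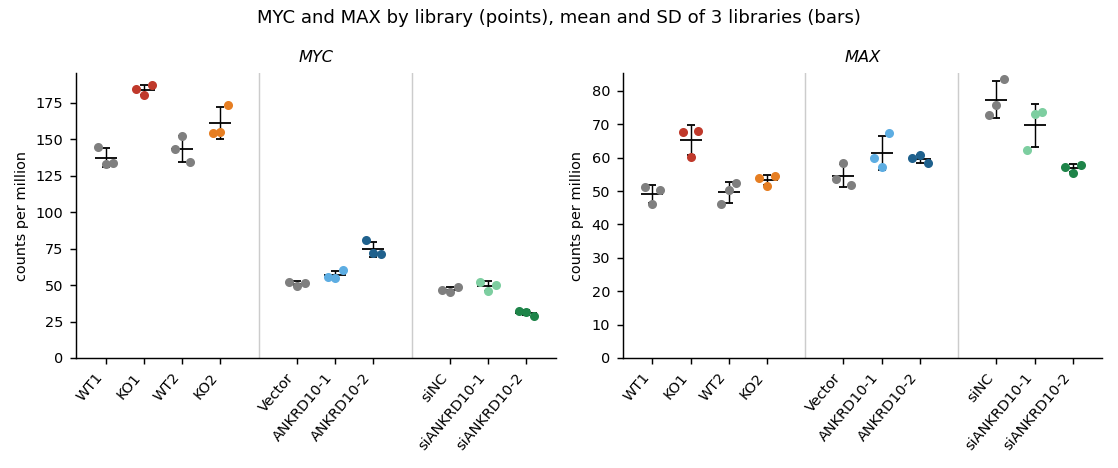
CPM of MYC (left) and MAX (right) in each of 30 libraries, 3 points per group, with the group mean and SD in black and controls in grey. Vertical lines part the 3 tables, which were scaled separately. MYC lies above its control in KO1, KO2, ANKRD10-1 and ANKRD10-2 and below it in siANKRD10-2, and MAX lies clear of its control in KO1 and siANKRD10-2.

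In siANKRD10-2 all 6 epithelial genes were also lower than in siNC, with log2 fold changes of -0.79 to -0.18, and their summed level was 2802 to 2936 CPM against 4410.0 to 4707 CPM. The sum of 8 urothelial genes was 599 to 617 CPM against 1058 to 1094 CPM, with UPK3A and UPK1B at or near 0. Only 6 of these were tested there, and 1 was lower, none higher and 5 not called, against 18.7% lower and 17.6% higher of all genes. Among these 6 the median log2 fold change was -0.18, 1 lay above 0, and 3 had an unadjusted p under 0.05. Whether the whole set shifted was not tested. The sum of the 8 genes of other cell types was 42.5 to 44.0 CPM against 42.6 to 43.1 CPM. With siANKRD10-1 the epithelial sum was 3724 to 4053 CPM and the urothelial sum 848 to 858 CPM. There 1 of 6 urothelial genes was called lower and 5 were not called, against 5.52% lower and 5.08% higher of all genes. In the overexpression table the epithelial sum was 2485 to 2661 CPM in Vector, 2787 to 2848 CPM with ANKRD10-1, where 3 of 6 genes rose, and 2798 to 3197 CPM with ANKRD10-2, where 4 of 6 rose. The urothelial sum there was 466 to 478, 511 to 519 and 579 to 588 CPM. Among 6 urothelial genes tested, 1 rose and none fell with ANKRD10-1, against 3.5% and 2.81% of all genes. With ANKRD10-2 3 rose and 1 fell, against 10.7% and 9.25%. In the knockout table the epithelial sum of KO1, at 2962 to 3159 CPM, and of KO2, at 2982 to 3145 CPM, overlapped that of its control, whereas the urothelial sum was 1246 to 1300.0 CPM in KO1 against 1125 to 1130.0 CPM in WT1 and 995 to 1016 CPM in KO2 against 1046 to 1078 CPM in WT2. Among 6 urothelial genes tested in KO1, 2 rose and 3 fell, against 17.9% and 18.2% of all genes, and 3 had a log2 fold change above 0. Among 7 tested in KO2, 1 rose and 2 fell, against 19.3% and 19.2%, and 1 had a log2 fold change above 0. Urothelial genes thus passed in both directions in each knockout. The other-cell sum was 34.5 to 39.1 CPM in KO1 against 54.8 to 57.9 CPM in WT1. Of the 5 other-cell genes tested in KO1, 1 was higher, 2 lower and 2 not called, against 17.9% higher and 18.2% lower of all genes. They did not move together. The part of these shifts in the members' changes was not tested.

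Genes near MYC were counted as well. Within 5 Mb of MYC, 41 genes were tested in KO1 and had a median log2 fold change of 0.14, with 13 higher and 1 lower, where the median of all genes was -0.0020 and 17.9% were higher and 18.2% lower. In KO2, 43 neighbours had a median of 0.091, with 12 higher and 6 lower, against 19.3% and 19.2% of all genes. With ANKRD10-2 the median of 57 neighbours was 0.051 (6 higher and 2 lower), and with siANKRD10-2 that of 49 neighbours was -0.11 (7 higher and 10 lower). Of all genes 10.7% were higher and 9.25% lower with ANKRD10-2, and 17.6% and 18.7% with siANKRD10-2. The part of these neighbour shifts in the MYC values was not tested.

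MAX (chr14:65006174-65102695, minus strand), the obligate partner of MYC and a partner of its antagonists, changed in the same direction as MYC in KO1 and in siANKRD10-2. KO1 libraries had 67.6, 60.1 and 68.0 CPM and WT1 libraries 51.2, 46.2 and 50.3 CPM, without overlap. The rise of 32.4% stood beside 34.0% for MYC (log2 fold change 0.41, SE 0.067, adjusted p = 0.00071). KO2 libraries had 54.0, 51.6 and 54.4 CPM and overlapped WT2 at 46.1, 50.4 and 52.4 CPM (log2 fold change 0.10, 95% interval -0.020 to 0.22, adjusted p = 0.18). siANKRD10-2 libraries had 57.2, 55.6 and 57.8 CPM, all below siNC at 72.7, 75.8 and 83.5 CPM. MAX fell by 26.4% there (log2 fold change -0.44, SE 0.059, adjusted p = 1.5e-06), and was lower than with siANKRD10-1 as well (log2 difference -0.29, adjusted p = 0.0011). In the overexpression table MAX was not called. ANKRD10-2 libraries had 60.0, 60.7 and 58.3 CPM and Vector 53.7, 58.5 and 51.8 CPM, an overlap (log2 fold change 0.13, 95% interval 0.0071 to 0.25, adjusted p = 0.13).

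The balance of MYC to the other members was described by ratios of CPM per kilobase within each library, which carry no test here. The log2 ratio of MYC to MAX was 2.06 ± 0.077 in KO1 and 2.04 ± 0.061 in WT1 (mean ± SD, n = 3), so the pair rose together. It was 0.88 ± 0.092 with ANKRD10-2, above the 0.46 ± 0.13 of Vector in every library. Against the summed level of MXD1, MXD3, MXD4, MXI1 and MNT, the log2 ratio of MYC was 2.31, 2.34 and 2.28 in KO1 and 1.76, 1.68 and 1.74 in WT1. In KO2 it was 2.03, 2.02 and 2.10 and in WT2 1.79, 1.89 and 1.65, again without overlap. ANKRD10-2 libraries had -0.29, -0.48 and -0.44 and Vector libraries -0.73, -0.80 and -0.82, and the ANKRD10-2 values were all higher. The ANKRD10-1 libraries, at -0.71, -0.69 and -0.55, also lay above every Vector library. siANKRD10-2 libraries had -0.88, -0.83 and -0.92 and siNC libraries -0.37, -0.52 and -0.49, and the siANKRD10-2 values were all lower. On the log2 scale the ratio lay above 0 in all 12 libraries of the knockout table and below 0 in all 18 others, but the tables were scaled separately. The sum also holds MXD3, an uncertain member for reasons given below. In siNC MXD3 made up 11.4 of a mean sum of 21.5 CPM per kilobase while MYC stood at 15.6. It made up 11.2 of 21.9 in siANKRD10-1, with MYC at 16.5, and 9.43 of 18.9 in siANKRD10-2, with MYC at 10.3. The values below 0 in these 3 groups thus rest on MXD3.

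**Figure D3:**
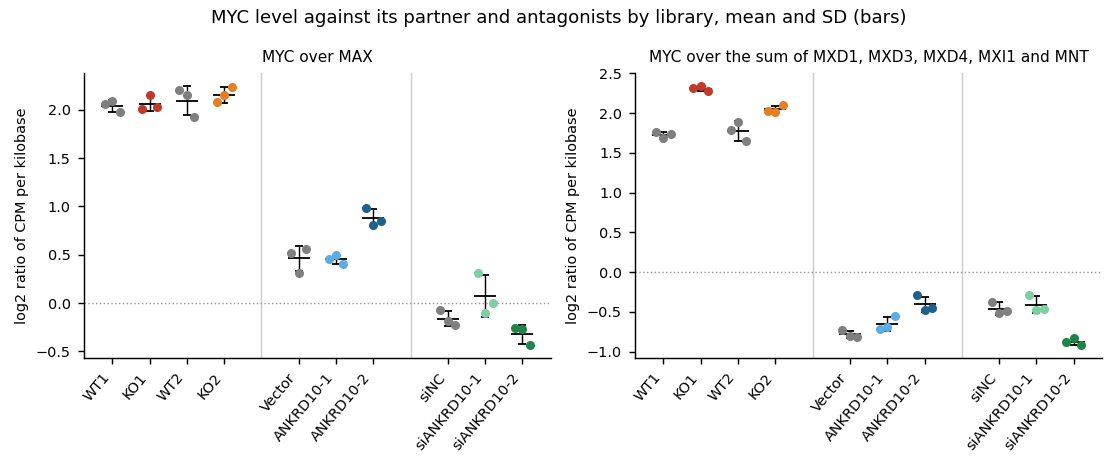
Log2 ratio of CPM per kilobase of MYC to MAX (left) and of MYC to the sum of 5 antagonists (right) in each library, with group mean and SD in black. The dotted line marks equal levels. The right panel shows KO1 and KO2 above their controls, ANKRD10-2 above Vector and siANKRD10-2 below siNC.

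Among the antagonists, MXD1 (chr2:69897688-69942945, plus strand), a protein known from differentiating cells, had the largest single change. KO2 libraries had 13.2, 13.2 and 12.4 CPM and WT2 libraries 6.89, 5.84 and 7.30 CPM. The 3 KO2 values were close to each other and all above WT2, a 1.93-fold rise (log2 fold change 0.95, SE 0.11, adjusted p = 3.3e-05). KO1 libraries had 6.37, 7.78 and 7.97 CPM and overlapped WT1 at 6.66, 7.66 and 6.70 CPM (log2 fold change 0.070, 95% interval -0.23 to 0.37, adjusted p = 0.74). With ANKRD10-2 the libraries had 76.4, 79.3 and 77.2 CPM against 60.6, 60.4 and 62.5 CPM in Vector. That rise, like the one of MYC, was clear of the control (log2 fold change 0.35, SE 0.049, adjusted p = 0.00024), and also of the ANKRD10-1 libraries (log2 difference 0.24, adjusted p = 0.0069). siANKRD10-2 libraries had 14.7, 13.4 and 12.6 CPM against 17.4, 15.8 and 18.1 CPM in siNC, and MXD1 fell (log2 fold change -0.34, SE 0.088, adjusted p = 0.0035). MXD1 shares 3.73% of its exon bases with SNRNP27 on the same strand, and SNRNP27 differed by 0.15 in KO2 and 0.44 in siANKRD10-2.

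MXD3 (chr5:177301461-177312757, minus strand), which is known from proliferating cells, was lower in both knockouts. KO1 libraries had 8.44, 7.23 and 10.1 CPM, all below WT1 at 14.6, 11.7 and 13.3 CPM (log2 fold change -0.62, SE 0.14, adjusted p = 0.0045). KO2 libraries had 8.07, 10.7 and 11.7 CPM, below WT2 at 14.3, 13.2 and 13.3 CPM (log2 fold change -0.42, SE 0.13, adjusted p = 0.02). The KO2 call was lost without KO2 replicate 1, the lowest library (log2 fold change -0.28, adjusted p = 0.064), or WT2 replicate 1 (-0.39, 0.071). In siANKRD10-2 MXD3 stood at 50.6, 48.5 and 46.7 CPM against 53.1, 59.0 and 63.5 CPM in siNC and fell by 0.27 on the log2 scale (adjusted p = 0.0018). MXD3 is an uncertain member, because it shares 22.5% of its exon bases with PRELID1 on the opposite strand and 18.0% with RAB24 on the same strand, and the strand setting of the counting is not given in the sources used here. PRELID1 rose in KO1 and KO2 (log2 fold changes 0.37 and 0.38, adjusted p = 0.00035 and 2e-05).

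MXD4 (chr4:2247432-2262294, minus strand) fell in KO1, from 19.3, 16.5 and 16.4 CPM in WT1 to 11.5, 10.1 and 11.8 CPM. Its log2 fold change of -0.64 was the lowest of any member in any of the 6 comparisons (SE 0.10, adjusted p = 0.00063). KO2 libraries had 12.3, 15.3 and 15 CPM and overlapped WT2 at 14.8, 17.4 and 17.0 CPM (log2 fold change -0.21, 95% interval -0.43 to 0.015, adjusted p = 0.13). siANKRD10-2 libraries had 11.6, 9.07 and 8.26 CPM and siNC 7.37, 7.11 and 8.34 CPM, an overlap, with siANKRD10-2 replicate 1 the highest (log2 fold change 0.34, SE 0.12, adjusted p = 0.029). Without that library the log2 fold change was 0.19 (adjusted p = 0.28), and the call was also lost without siNC replicate 1 (0.32, 0.07), without siNC replicate 2 (0.29, 0.11) and in DESeq2 (0.34, 0.086).

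MXI1 (chr10:110207605-110287365, plus strand) passed the threshold in none of the 6 comparisons with a control by edgeR or DESeq2, and 3 of them had an unadjusted p under 0.05. It was lower with siANKRD10-2, at 15.7, 14.8 and 15.6 CPM, than with siANKRD10-1, at 17.7, 21.0 and 18.7 CPM (log2 difference -0.31, adjusted p = 0.0051), whereas siNC stood at 15.5, 17.1 and 17.0 CPM and overlapped siANKRD10-2. In KO2 it stood at 20.5, 17.9 and 21.4 CPM against 22.8, 21.8 and 24.0 CPM in WT2, without overlap (log2 fold change -0.20, 95% interval -0.37 to -0.032, adjusted p = 0.059). MNT (chr17:2384060-2401118, minus strand), a broadly expressed antagonist, varied least of the 5, with log2 fold changes between -0.18 and 0.11. KO2 libraries had 23.8, 22.5 and 22.2 CPM against 26.0, 26.2 and 25.5 CPM in WT2, and MNT fell there (log2 fold change -0.18, SE 0.061, adjusted p = 0.031). That call was lost without KO2 replicate 2 (log2 fold change -0.18, adjusted p = 0.08) or replicate 3 (-0.16, 0.089) and without WT2 replicate 1 (-0.18, 0.074), 2 (-0.18, 0.078) or 3 (-0.20, 0.053), and in DESeq2 (adjusted p = 0.071). It was also lost with all libraries of the table in the fit (adjusted p = 0.061) and with all 6 wild-type libraries as control (-0.12, 0.15).

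**Figure D4:**
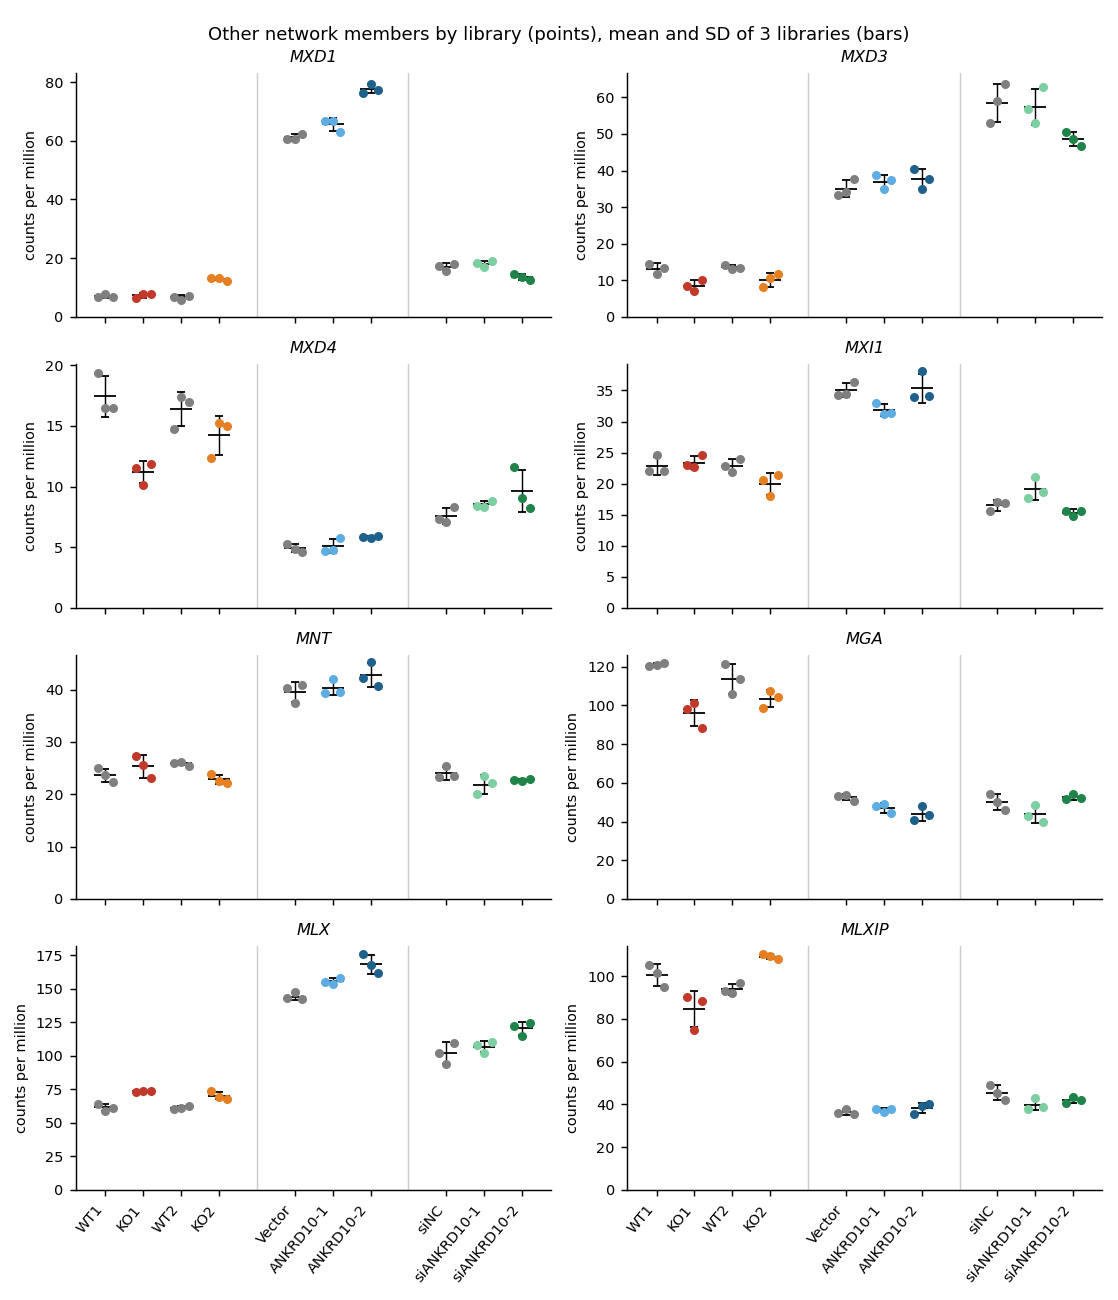
CPM of the 8 other members in each library, 3 points per group, with group mean and SD in black and controls in grey. Vertical lines part the 3 tables. MXD1 in KO2 and ANKRD10-2, MXD4 in KO1 and MLX in KO1, KO2, ANKRD10-2 and siANKRD10-2 stand clear of their controls.

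MGA (chr15:41621224-41773081, plus strand), a large MAX partner with a second DNA-binding domain of the T-box kind, was lower where MYC was higher in KO1 and with ANKRD10-2. KO1 libraries had 97.9, 101 and 88.5 CPM, all below WT1 at 120.5, 121 and 122 CPM, and MGA fell by 20.8% (log2 fold change -0.34, SE 0.057, adjusted p = 0.00084). KO2 libraries had 98.8, 108 and 104 CPM and overlapped WT2 at 122, 106 and 113 CPM (log2 fold change -0.14, 95% interval -0.26 to -0.023, adjusted p = 0.058), and DESeq2 called MGA lower there (adjusted p = 0.046). ANKRD10-2 libraries had 40.6, 48.0 and 43.6 CPM, all below Vector at 53.0, 53.7 and 50.7 CPM. The fall (log2 fold change -0.25, SE 0.064, adjusted p = 0.014) missed the threshold without ANKRD10-2 replicate 3 (-0.24, 0.051), Vector replicate 1 (-0.24, 0.058) or Vector replicate 2 (-0.24, 0.057). With ANKRD10-1 MGA stood at 47.8, 49.0 and 44.3 CPM (log2 fold change -0.16, 95% interval -0.27 to -0.043, adjusted p = 0.098), below every Vector library, and with library totals alone it was called (-0.20, 0.031). It was higher with siANKRD10-2, at 51.5, 54.2 and 51.9 CPM, than with siANKRD10-1, at 42.9, 48.4 and 39.6 CPM (log2 difference 0.27, adjusted p = 0.0029). The siNC libraries, at 45.8 to 54.2 CPM, overlapped both groups, and MGA passed against siNC with neither siRNA. Against siNC the log2 fold change of MGA was 0.073 with siANKRD10-2 (95% interval -0.057 to 0.20) and -0.20 with siANKRD10-1 (-0.36 to -0.033). Of 9 other subunits of its PRC1.6 complex, 3 rose in KO1 and none fell, and in KO2 3 rose and 1 fell, where 17.9% of all genes rose and 18.2% fell in KO1 and 19.3% and 19.2% in KO2. E2F6, a repressor of cell cycle genes in that complex, rose in both (log2 fold changes 0.28 and 0.28). With siANKRD10-2 4 of the 9 fell and none rose, against 18.7% and 17.6% of all genes, with YAF2, a bridging subunit, at -0.95 and the ubiquitin ligases RING1 and RNF2 at -0.41 and -0.40.

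MLX (chr17:42567068-42573239, plus strand), the partner of MLXIP and of some MXD proteins, was above the control in all 6 comparisons and was called in 4 of them. KO1 libraries had 73.0, 73.7 and 73.8 CPM against 64.2, 59.2 and 61.3 CPM in WT1 (log2 fold change 0.25, SE 0.052, adjusted p = 0.0029). KO2 libraries had 73.8, 69.7 and 68.0 CPM against 60.1, 60.9 and 62.6 CPM in WT2 (log2 fold change 0.20, adjusted p = 0.0056). Neither pair of groups overlapped. ANKRD10-2 libraries had 176, 168 and 162 CPM against 143, 148 and 142 CPM in Vector, and siANKRD10-2 libraries 122, 115 and 125 CPM against 102, 94.2 and 110.0 CPM in siNC. MLX thus rose in both (log2 fold changes 0.22 and 0.24, adjusted p = 0.0051 and 0.0021), although MYC rose in the first and fell in the second. With ANKRD10-1 and siANKRD10-1 the log2 fold changes were 0.11 and 0.066 (95% intervals 0.020 to 0.20 and -0.066 to 0.20). siANKRD10-2 exceeded siANKRD10-1 by 0.18 (adjusted p = 0.013), a call lost without siANKRD10-2 replicate 1 (0.17, 0.06) or replicate 3 (0.16, 0.061). MLX shares 18.1% of its exon bases with PSMC3IP on the opposite strand. PSMC3IP rose in the same 4 comparisons (log2 fold changes 0.28, 0.29, 0.33 and 0.33), and without the strand setting the reads of this pair cannot be told apart.

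MLXIP (chr12:122078722-122147347, plus strand), the glucose-responsive partner of MLX, went opposite ways in the knockouts. KO1 libraries had 90.4, 75.0 and 88.6 CPM, below WT1 at 105, 101 and 94.9 CPM (log2 fold change -0.25, SE 0.072, adjusted p = 0.02). KO2 libraries had 110.2, 109 and 108 CPM, above WT2 at 92.8, 92.1 and 96.9 CPM (log2 fold change 0.21, SE 0.040, adjusted p = 0.0011). The KO1 call was lost without WT1 replicate 1 (-0.21, 0.086) or WT1 replicate 2 (-0.24, 0.071), whereas the KO2 call held without any single library. In the other tables MLXIP was not called against a control, with log2 fold changes of -0.19 to 0.075.

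The E-box was searched as CACGTG, which reads the same on both strands, in promoter windows of 300 bases, 250 before and 50 after the start site, taken from RefSeq on GRCh38.p14. A window was at hand for 9 of the 10 members, and MLX, MNT and MXD4 held the motif. Among all windows given, 7.26% of 35116 windows and 8.77% of 27305 genes held the motif. Of the genes on the lists used below, 11 of 20 long-known MYC targets with a window held it, and so did ARRDC4 but not TXNIP. The 250 bases before the start site are shown 5′ to 3′ for the 3 members and ARRDC4, with the E-box in capitals, because these are the members and the MLXIP target whose windows held it. The MLX stretch is chr17:42566850-42567099 on the plus strand, MNT chr17:2401061-2401310 and MXD4 chr4:2262110-2262359 on the minus strand, and ARRDC4 chr15:97960453-97960702 on the plus strand. The motif begins 50 bases before the start site in MLX, 193 in MNT, 238 in MXD4 and 210 in ARRDC4.
MLX: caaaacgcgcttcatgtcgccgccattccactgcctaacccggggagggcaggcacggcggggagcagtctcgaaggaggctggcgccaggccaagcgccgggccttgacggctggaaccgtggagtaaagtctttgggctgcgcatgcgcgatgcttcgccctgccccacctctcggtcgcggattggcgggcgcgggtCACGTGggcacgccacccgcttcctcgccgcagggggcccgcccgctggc
MNT: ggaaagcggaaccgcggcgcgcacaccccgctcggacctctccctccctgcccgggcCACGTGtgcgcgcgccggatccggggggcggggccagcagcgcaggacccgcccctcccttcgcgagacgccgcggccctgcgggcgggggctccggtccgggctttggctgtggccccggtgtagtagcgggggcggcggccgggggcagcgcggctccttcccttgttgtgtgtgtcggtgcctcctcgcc
MXD4: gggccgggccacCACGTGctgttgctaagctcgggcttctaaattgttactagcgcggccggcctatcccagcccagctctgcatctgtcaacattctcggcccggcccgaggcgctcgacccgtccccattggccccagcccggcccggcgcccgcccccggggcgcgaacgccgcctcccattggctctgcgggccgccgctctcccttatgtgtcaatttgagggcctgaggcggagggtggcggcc
ARRDC4: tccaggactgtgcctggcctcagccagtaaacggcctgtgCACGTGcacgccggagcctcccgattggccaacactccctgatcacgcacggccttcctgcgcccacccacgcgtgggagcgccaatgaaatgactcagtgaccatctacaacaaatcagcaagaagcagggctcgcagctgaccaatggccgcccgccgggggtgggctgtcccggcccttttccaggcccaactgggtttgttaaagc
A match is a description of the letters and not of binding. The motif holders did not share a direction, since in KO1 MLX rose and MXD4 fell while MNT had a log2 fold change of 0.10 (95% interval -0.084 to 0.28).

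TXNIP and ARRDC4, arrestin-like brakes on glucose uptake known as direct targets of MLX with MLXIP, separated the overexpressed variants. TXNIP stood at 25.1, 23.4 and 22.2 CPM in Vector, 13.7, 13.4 and 13.3 CPM with ANKRD10-1 and 41.1, 41.7 and 44.2 CPM with ANKRD10-2, and none of these groups overlapped. It fell with ANKRD10-1 (log2 fold change -0.81, SE 0.072, adjusted p = 6.7e-07) and rose with ANKRD10-2 (0.85, SE 0.066, adjusted p = 8.6e-07). ARRDC4 followed, at 10.4, 10.2 and 10.3 CPM in Vector, 6.35, 7.54 and 6.04 CPM with ANKRD10-1 (log2 fold change -0.63) and 15.5, 15.9 and 16.4 CPM with ANKRD10-2 (0.63). Compared directly, ANKRD10-2 exceeded ANKRD10-1 by 1.65 for TXNIP and 1.26 for ARRDC4 (adjusted p = 3.2e-12 and 6.5e-08), while MLX and MLXIP differed by 0.11 and 0.032 and passed in neither.

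In the knockout table TXNIP rose in KO2 (148, 155 and 169.8 against 110.3, 117 and 124 CPM, log2 fold change 0.43, adjusted p = 6.9e-05), and so did ARRDC4 (0.73, adjusted p = 0.00039). In KO1 neither passed (TXNIP -0.087, 95% interval -0.21 to 0.036, and ARRDC4 -0.26, -0.53 to 0.015). The controls differed for these genes, however, since WT2 was below WT1 for TXNIP (log2 difference -0.36, adjusted p = 0.0034) and ARRDC4 (-0.52, 0.049), at 148, 149.8 and 153 CPM of TXNIP in WT1. KO2 TXNIP, at 148, 155 and 169.8 CPM, thus overlapped WT1. In the knockdown table TXNIP fell with both siRNAs (log2 fold changes -0.19 and -0.59, adjusted p = 0.041 and 1.8e-08), whereas ARRDC4 rose with siANKRD10-1 (0.58, adjusted p = 0.0012) and had -0.25 with siANKRD10-2 (95% interval -0.49 to -0.0082).

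**Figure D5:**
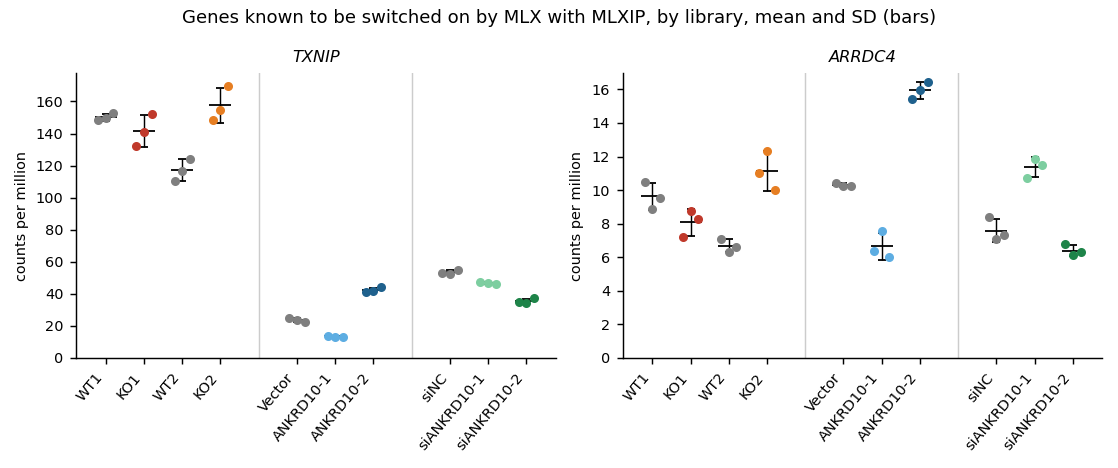
CPM of TXNIP (left) and ARRDC4 (right) in each library, 3 points per group, with group mean and SD in black and controls in grey. Vertical lines part the 3 tables. ANKRD10-1 lies below Vector and ANKRD10-2 above it for both genes, and WT2 lies below WT1.

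WT1 and WT2 were compared as a background for the knockouts. No member was called between them by edgeR or DESeq2 and none had an unadjusted p under 0.05, where 0.578% of all genes were higher in WT2 and 0.654% lower. For MYC the log2 difference was 0.063 (95% interval -0.055 to 0.18), and over the members it ran from -0.094 to 0.13. The KO1 and KO2 effects were then compared as a difference of differences over all 12 libraries of the table. Of the 10 members, 2 had a greater effect in KO1 (MYC and MAX) and 3 a lower one (MXD1, MXD4 and MLXIP), against 11.2% and 12.1% of all genes. The effect on MXD1 was lower in KO1 by 0.88 on the log2 scale (SE 0.17, adjusted p = 0.0012), and that on MLXIP by 0.46 (SE 0.086, adjusted p = 0.00092). Both calls held without any single library. The effect on MYC was greater in KO1 by 0.25 (SE 0.078, adjusted p = 0.028), a call lost without KO1 replicate 3, KO2 replicate 1 or 2, WT1 replicate 2 or 3, or WT2 replicate 1 or 2 (log2 differences 0.20 to 0.31 over all 12 omissions). For MAX it was greater by 0.30 (SE 0.089, adjusted p = 0.022), lost without KO1 replicate 1 or 3, KO2 replicate 2, WT1 replicate 2, or WT2 replicate 2 or 3 (0.25 to 0.36). For MXD4 it was -0.43 (SE 0.15, adjusted p = 0.048), and that call held only without KO1 replicate 3 or KO2 replicate 1 and was lost without any of the other 10 libraries (-0.52 to -0.36). The RBPMS level also differed between the knockouts, at 14.3 to 15.2 CPM in KO1 and 19.0 to 21.3 CPM in KO2, and the part of guide, clone and remaining RBPMS in these differences cannot be told apart.

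Of 3 further genes of the network, MYCN had at most 4 reads in any library and was not tested. MYCL, a MYC relative, had 100 to 550 reads per library and passed in none of the 6 comparisons, with log2 fold changes of -0.32 to 0.30, none of them with an unadjusted p under 0.05 in edgeR. MLXIPL, the MLXIP relative also called ChREBP, fell in KO2 (log2 fold change -1.06, SE 0.19, adjusted p = 0.00069), with siANKRD10-1 (-0.64, 0.04) and with siANKRD10-2 (-0.56, 0.029). Its level ran from 1.65 to 7.58 CPM over the 30 libraries, with 50 to 388 reads.

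Proteins that work with MYC on chromatin, 18 genes, showed no direction shared by all comparisons. The log2 fold change lay above 0 for 14 of the 18 in KO2, for 7 in KO1 and for 2 with ANKRD10-2 against ANKRD10-1. In KO1 5 rose and 4 fell (median log2 fold change -0.066), and in KO2 7 rose and 2 fell (0.087). Of all genes 17.9% rose and 18.2% fell in KO1, and 19.3% and 19.2% in KO2, so the KO1 counts lay near the shares of all genes. KAT2A, the GCN5 acetyltransferase, rose in both (log2 fold changes 0.39 and 0.38), whereas SMARCB1, a SWI/SNF subunit that binds MYC, fell in KO1 (-0.42) and rose in KO2 (0.38). RUVBL1, an ATPase of the TIP60 complex, rose in KO1 (0.53). With siANKRD10-1 2 rose and 4 fell, against 5.08% and 5.52% of all genes. With ANKRD10-2 1 rose (WDR5, 0.23) and 4 fell, against 10.7% and 9.25%, and with ANKRD10-1 edgeR called none, with 5 at an unadjusted p under 0.05. With siANKRD10-2 6 rose and 2 fell, against 17.6% and 18.7%, among them ZBTB17 (MIZ1), through which MYC represses genes, at 0.66 and the acetyltransferase EP300 at -0.54.

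Genes whose proteins act on the stability of MYC, 18 in number, were also mixed, with 4 higher and 4 lower in KO1 and 6 higher and 5 lower in KO2, where 17.9% and 18.2% of all genes were called in KO1 and 19.3% and 19.2% in KO2. PLK1, a mitotic kinase that stabilizes MYC, rose in KO1, KO2 and siANKRD10-2 (log2 fold changes 0.37, 0.36 and 0.33). HUWE1, a ubiquitin ligase of MYC, fell in KO2 (-0.51) and with both overexpressed variants (-0.19 and -0.32), and USP36, a nucleolar deubiquitinase, rose with both (0.20 and 0.33). FBXW7, the ligase that reads phosphorylated MYC, fell with siANKRD10-1 (-0.52, adjusted p = 2.7e-05). With siANKRD10-2 4 rose and 3 fell, against 17.6% and 18.7% of all genes.

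Among 13 subunits of the SIN3 and NCOR corepressors that MXD proteins and MNT recruit, 2 rose and 5 fell in KO1, and 2 rose and 3 fell in KO2, against 17.9% and 18.2% of all genes in KO1 and 19.3% and 19.2% in KO2. The histone chaperone RBBP4 fell in both (log2 fold changes -0.38 and -0.28), the deacetylase HDAC1 rose in KO1 (0.32) and the scaffold SIN3B rose in KO2 (0.32). ING2, a reader of histone methylation in the SIN3 complex, rose with ANKRD10-2 (0.39) and fell with siANKRD10-2 (-0.42), where SAP30 had the largest fall (-0.71, adjusted p = 1.1e-06) and 5 rose and 2 fell in all, against 17.6% and 18.7% of all genes. With ANKRD10-1 and siANKRD10-1 edgeR called none of the 13, with 0 and 4 at an unadjusted p under 0.05.

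Most long-known MYC target genes rose in both knockouts and with ANKRD10-2, and more fell than rose with siANKRD10-2. Of 24 listed, 23 were tested in the knockout table, and 18 rose and 1 fell in KO1 (median log2 fold change 0.48), against 17.9% and 18.2% of all genes. LDHA, which makes lactate, rose from 961, 1014 and 1047 CPM to 1910.2, 2053 and 1995 CPM (log2 fold change 0.98), and SRM, a polyamine synthase, BOP1, a ribosome assembly factor, and NME1, a nucleoside kinase, rose by 0.72, 0.69 and 0.69. In KO2, where MYC itself rose less, 18 of 23 also rose and 1 fell (median 0.30), against 19.3% and 19.2%. ODC1, the first enzyme of polyamine synthesis, rose by 0.71 there, and the gene that fell was TERT, the telomerase subunit (-2.29, from 1.49, 2.51 and 2.39 CPM to 0.536, 0.259 and 0.501 CPM). With ANKRD10-2 16 of 23 rose and none fell (median 0.27), and with ANKRD10-1 9 rose and 1 fell (0.15). Of all genes 10.7% rose and 9.25% fell with ANKRD10-2, and 3.5% and 2.81% with ANKRD10-1. Compared directly, 3 of 23 were higher with ANKRD10-2 than with ANKRD10-1 (ODC1, NME1 and LDHA, 0.63, 0.37 and 0.34) and none lower, against 4.15% and 3.1% of all genes. siANKRD10-2 lowered 10 of 22 and raised 2 (median -0.11), against 18.7% and 17.6% of all genes, with LDHA at -0.88 and PHB1, a mitochondrial chaperone, at -0.82. siANKRD10-1 raised 4 of 22 and lowered none (median 0.074), against 5.08% and 5.52%, with the nucleolar protein NOLC1 at 0.61. Over all genes tested the medians lay between -0.016 and 0.0035, and the list, like the others, was chosen with earlier results of these data known.

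The 7 MYC targets of the qRT-PCR and ChIP panels of the study (the nucleolar DDX21, RSL1D1 and WDR43, the glycolytic HK2 and PGK1, the mitochondrial C1QBP and the methyltransferase PRMT3) were chosen by the study on such samples and are not independent evidence of a direction. All 7 rose in KO1, by 0.61 to 0.82 on the log2 scale, and 6 of 7 rose in KO2, by 0.093 for PGK1 to 0.72 for HK2. Of all genes 17.9% rose and 18.2% fell in KO1, and 19.3% and 19.2% in KO2. HK2, a hexokinase, stood at 44.9, 44.2 and 43.5 CPM in KO1 against 25.6, 24.9 and 24.7 CPM in WT1. PGK1, a glycolytic kinase, at 867, 896 and 940.4 CPM in KO1 against 512, 558 and 559 CPM, had a log2 fold change of 0.73, against 0.093 in KO2. With siANKRD10-2 6 of 7 fell, led by HK2 from 37.0, 34.7 and 34.9 CPM to 16.7, 16.5 and 15.2 CPM (log2 fold change -1.14), and WDR43 had -0.064 (95% interval -0.17 to 0.041). There 18.7% of all genes fell and 17.6% rose. ANKRD10-2 raised 5, and ANKRD10-1 raised 3 (DDX21, RSL1D1 and WDR43) and lowered PGK1 (-0.18, adjusted p = 0.015). Of all genes 10.7% rose and 9.25% fell with ANKRD10-2, and 3.5% and 2.81% with ANKRD10-1. With siANKRD10-1 edgeR called none of the 7, and 2 had an unadjusted p under 0.05, where 5.08% of all genes rose and 5.52% fell.

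To describe which genes had a pattern like MYC, log2 CPM of each gene was centred within each table and correlated with MYC over the 30 libraries, among 13714 genes tested in all tables. The points share controls and library preparation, so the values carry no test. The most similar genes were CACYBP (Pearson's r = 0.927), a ubiquitin ligase adaptor, the glycolytic enzyme TPI1 (0.916), CDV3 (0.914), the actin-binding TAGLN2 (0.914) and the ribosomal protein RPL8 (0.912). Within the network, MAX was the most similar to MYC (0.709) and MGA the least (-0.762), with MXD1 at 0.482, MLX at 0.207 and MXD4 at -0.29. Among all genes correlated with MYC, MAX had rank 668 and MGA rank 13557. For MAX, the most similar genes were DDIT4 (0.87), an inhibitor of mTORC1 signalling, ALDH18A1 (0.864), a proline synthesis enzyme, and NOB1 (0.858), a ribosome assembly nuclease.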

How the data were processed

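The authors deposited 3 tables of raw counts per gene, without normalization, for 30 libraries of poly(A) RNA. The submitters' processing notes name Trimmomatic 0.36, featureCounts of Subread 1.5.1 and GRCh38, and the methods name Cutadapt, HISAT2 and StringTie. The strand setting of the counting is not given in the sources used here. Gene lengths and coordinates came from the deposited overexpression and knockdown tables and equalled GENCODE annotation for the 10 members.

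Counts were analysed in R 4.3.3 with edgeR 4.0.16. Only the libraries compared entered a fit. Genes passed filterByExpr (minimum count 10, minimum total 15), counts were normalized by TMM, and the quasi-likelihood test was adjusted over all genes, with a threshold of 0.05. Fold changes used a prior count of 0.125, and errors are SE on the log2 scale. CPM used TMM library sizes over a table. With 3 libraries against 3, an exact permutation test of 1 gene cannot go below 0.1. DESeq2 1.42.0 was an alternative, with others on scaling, filter, libraries used, replicate number and omission of each library. The test was checked on simulated data, where for KO1 against WT1 59.6% of 94 genes changed by 1 on the log2 scale and 88.3% of 94 changed by 2 were recovered among 17865 genes. Named genes were all members, and for larger lists genes among the 4 called with the largest change in a comparison. 1 result is not reported here. The members and lists were chosen with earlier results of these data known. Same-numbered libraries did not deviate together by the rule applied (each correlation over 0.1) in any comparison, and were not treated as pairs.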

Additional observations from a re-analysis of the deposited data

Results flagged for a closer look

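In all, 5 members differed between the knockouts by a test of the difference itself, KO1 effect minus KO2 effect in edgeR's quasi-likelihood fit over the 12 knockout libraries. On the log2 scale the differences were 0.25 for MYC, 0.30 for MAX, -0.88 for MXD1, -0.43 for MXD4 and -0.46 for MLXIP. Of all genes 11.2% had a greater effect in KO1 and 12.1% a lower one. With 1 library left out, the call was lost in 7 of 12 omissions for MYC, 6 for MAX and 10 for MXD4. The calls of MXD1 and MLXIP held in every omission. For MLXIP each KO1 library lay below each WT1 library while each KO2 library lay above each WT2 library. No group held enough libraries for a test of single outlying libraries.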

How the results depend on the processing

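Under alternatives other than the omission of a library, 582 member values kept their direction and side of the threshold, 10 newly passed it, 9 no longer passed and 9 reversed. With 1 library left out these were 583, 11, 43 and 23. With library totals alone, a choice made after seeing the data, 7 small uncalled values turned below 0, namely MXI1 in KO1 (-0.014) and with ANKRD10-2 (-0.066), MNT with ANKRD10-1 (-0.015), MLXIP with ANKRD10-1 (-0.0016), with ANKRD10-2 (-0.0041) and between the variants (-0.0024), and MXD3 between the variants (-0.0045). MXI1 in WT2 against WT1 was -0.0010 with size factors of the RLE kind and -0.00040 with all libraries in the fit. Members lower in KO2, 2 as reported, numbered 1 with all libraries of the table, 4 with all 6 wild-type libraries as control (MXD3, MXD4, MXI1 and MGA, without MNT) and 4 with library totals. Members lower with ANKRD10-1 numbered 1 with library totals, and members higher with siANKRD10-2 numbered 1 in DESeq2. Genes called in WT2 against WT1, 226 as reported, numbered 571 in DESeq2 and 88 without the filter. The causes were not tested.

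Replicate numbers are shared between groups, but the libraries share only a number. Correlations of same-numbered deviations ran from -0.058 to 0.13, and every library correlated best with its own number in KO2 against WT2 and ANKRD10-2 against Vector. With the replicate number as a block, members lower with siANKRD10-1 numbered 1 (MGA, -0.20, adjusted p = 0.034), MXI1 passed in KO2 (-0.20, 0.036), and between the knockouts MXD4 was lost (-0.43, 0.065) and MNT gained (0.28, 0.033).

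Without 1 library at a time, members lower ranged over 0 to 2 in KO2, 0 to 1 with ANKRD10-2 and 0 to 2 with siANKRD10-1, where MGA and MLXIP passed without siANKRD10-1 replicate 2 or siNC replicate 3. Members higher ranged over 1 to 2 with siANKRD10-2, 1 to 2 between the siRNAs and 0 to 3 between the knockouts. All genes called ranged over 700 to 1549 with ANKRD10-1, 2617 to 3533 with ANKRD10-2, 949 to 2430 with siANKRD10-1, 694 to 1396 between the variants and 71 to 133 between WT2 and WT1. Uncalled values that crossed 0 were MXI1 in KO1 (-0.0049 to 0.084) and with ANKRD10-2 (-0.035 to 0.046), MXD4 (-0.050 to 0.10) and MNT (-0.0079 to 0.055) with ANKRD10-1, MXD3 with siANKRD10-1 (-0.092 to 0.037), MAX (-0.089 to 0.028), MXD3 (-0.027 to 0.080) and MLXIP (-0.0018 to 0.083) between the variants, MNT between the siRNAs (-0.0052 to 0.11), and in WT2 against WT1 MAX (-0.036 to 0.062), MXD1 (-0.14 to 0.019), MXD3 (-0.044 to 0.12), MXI1 (-0.036 to 0.050) and MLX (-0.038 to 0.024). The lowest counts, of MXD4 and MXD1, limit what these depths can show for small changes.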
